A study of Rattus norvegicus with 83 samples.

Results

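The genes of hydrogen peroxide handling described here, 10 of the 17483 rows of the deposited count table, were followed across 10 groups of rat libraries. They were named as a list, with no cut on their values: Cat, Sod1, Sod2, Gpx1, Gpx4, Prdx1, Prdx6, Gsr, Txnrd1 and Gclc. The assay was BRB-seq, a bulk method that reads only the 3′ end of each transcript: every sample gets its own barcode during reverse transcription, and the barcoded samples are then sequenced together. Offspring of Sprague-Dawley dams gave the 83 libraries, whose tissue label is testis. Dams were gavaged once a day from gestational day 7 with corn oil (vehicle), with methimazole at 8 or 16 mg/kg body weight (MMI8, MMI16), or with amitrole at 25 or 50 mg/kg body weight (Ami25, Ami50). At gestational day 21 (GD21) each of the 5 groups had 6 libraries. At pup day 16 (PD16) there were 10 vehicle, 10 MMI8, 10 MMI16, 11 Ami25 and 12 Ami50 libraries. All dams ate a diet with stated iodine and selenium, and the vehicle groups differ from the others only in the compound, as far as the labels say. The labels do not give litters or animals, so a p-value here reflects only how far these samples spread, which may be partly technical.

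Superoxide dismutases turn superoxide into hydrogen peroxide, and catalase, the glutathione peroxidases and the peroxiredoxins remove the peroxide. Glutathione reductase and thioredoxin reductase restore the reduced carriers those peroxidases use, with NADPH as the electron source, and the catalytic subunit of glutamate-cysteine ligase starts the synthesis of glutathione. Several of these genes are known targets of the transcription factor Nrf2, which binds antioxidant response elements. Methimazole and amitrole both inhibit thyroid peroxidase, and amitrole is also a classic inhibitor of the catalase enzyme. The counts measure transcripts, not enzyme activity.

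The sequence just upstream of the annotated start is shown for Cat, whose enzyme amitrole inhibits. It is also shown for the 3 members whose RefSeq promoter window held the core of an antioxidant response element. The motif searched was TGACNNNGC on both strands (GCNNNGTCA on the other strand), in windows of 250 bases before to 50 bases after each start on the RefSeq build GRCr8. Of 33469 windows in the rat genome, 4038 (12.1%) held it. Windows were found for 8 of the 10 members, not for Gsr and Prdx6, and 3 of the 8 had a match. That count is by gene, and Gpx4 and Txnrd1 had more than 1 window, so it cannot be set beside the share of windows. The 250 bases before the start are given 5′ to 3′ on the strand of the gene, with the match in capitals.
Cat: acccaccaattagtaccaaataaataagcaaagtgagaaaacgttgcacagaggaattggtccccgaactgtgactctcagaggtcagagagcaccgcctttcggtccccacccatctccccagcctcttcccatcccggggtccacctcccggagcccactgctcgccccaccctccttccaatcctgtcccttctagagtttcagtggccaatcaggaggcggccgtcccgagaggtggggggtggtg
Sod2: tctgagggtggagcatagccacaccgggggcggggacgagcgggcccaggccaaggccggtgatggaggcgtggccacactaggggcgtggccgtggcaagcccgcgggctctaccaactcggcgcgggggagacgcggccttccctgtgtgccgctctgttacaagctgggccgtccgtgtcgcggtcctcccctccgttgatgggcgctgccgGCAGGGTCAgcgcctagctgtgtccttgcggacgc
Prdx1: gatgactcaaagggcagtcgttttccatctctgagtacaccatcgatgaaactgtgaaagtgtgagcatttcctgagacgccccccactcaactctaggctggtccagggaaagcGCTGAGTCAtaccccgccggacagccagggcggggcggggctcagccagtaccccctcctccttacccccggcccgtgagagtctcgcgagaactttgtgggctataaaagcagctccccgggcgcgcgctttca
Txnrd1: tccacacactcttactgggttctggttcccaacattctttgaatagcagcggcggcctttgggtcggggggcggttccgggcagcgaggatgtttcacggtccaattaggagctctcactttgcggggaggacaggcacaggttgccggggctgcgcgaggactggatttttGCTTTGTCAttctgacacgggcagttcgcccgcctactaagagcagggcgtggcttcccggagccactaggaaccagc
The Cat stretch, at chr3:110329527-110329776 on the minus strand, held no match. The Sod2 stretch lies at chr1:50050169-50050418 on the minus strand, with the match starting 35 bases before the start. For Prdx1, at chr5:135383656-135383905 on the plus strand, the match starts 135 bases before it. For Txnrd1, at chr7:22755905-22756154 on the minus strand, it starts 78 bases before it, in 1 of the 2 windows of that gene. A match describes these letters only. These 3 genes did not move together: against vehicle at PD16, Sod2 rose and Prdx1 fell in both amitrole groups, and Txnrd1 fell in Ami50.

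Several measured features of the libraries went against their labels and moved with the groups compared below. The 7 testis markers, among them Amh, Insl3 and Ddx4, held 97 counts in all 83 libraries together and at most 9.99 CPM in any library (CPM is the count scaled to the library total), whereas the 8 markers of the adrenal cortex summed to between 10084 and 65336 CPM in every library. The GD21 libraries held 495369 to 1627114 counts, with a median of 963356, and the PD16 libraries 202270 to 1186973, with a median of 492083. Embryonic globins took a mean of 14.8 to 17.1% of globin counts in PD16 vehicle, MMI8 and MMI16 and of at most 0.275% in every other group, PD16 amitrole included. Embryonic globins are made before birth, so this goes against the stage labels, and whatever made those 3 groups differ in globins cannot be told apart from the labelled stage, nor, at PD16, from amitrole when it is set against vehicle or methimazole. Eif2s3y, on the Y chromosome, had fewer than 10 CPM in 8 of 12 libraries of PD16 Ami50, and the liver gene Alb reached 200 CPM in 15 libraries (10 at GD21). The groups are called here by their labels. In these bulk samples, fewer cells of a type and less RNA per cell cannot be told apart.

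At GD21 the test called no member in any comparison, and at PD16 more members were called with amitrole than with methimazole. Each gene was tested with edgeR's quasi-likelihood F test, with a call wherever p, adjusted by Benjamini and Hochberg over all genes tested at that stage, was under 0.05 (6236 genes at GD21, 4906 at PD16). Against vehicle at PD16, Ami50 called 9 of the 10 members, 6 higher and 3 lower, where 53.5% of all genes were called (27.1% higher and 26.5% lower). Ami25 called 8, 6 higher and 2 lower, beside 55.4% of all genes (27.9% and 27.5%). Among these, Gsr passed the filter on low counts through vehicle and Gclc through the amitrole groups, as given below. The direction of these 2 calls was thus largely fixed by the filter. The median log2 difference of the 10 members was 0.69 in Ami50 and 0.48 in Ami25, beside 0.02 and 0.01 over all genes tested. MMI8 and MMI16 each called 2 members, both lower, beside 8.36% and 8.11% of all genes (6.89% and 7.26% lower). The 4 comparisons share the vehicle libraries, so their results are not independent of one another.

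**Figure D1:**
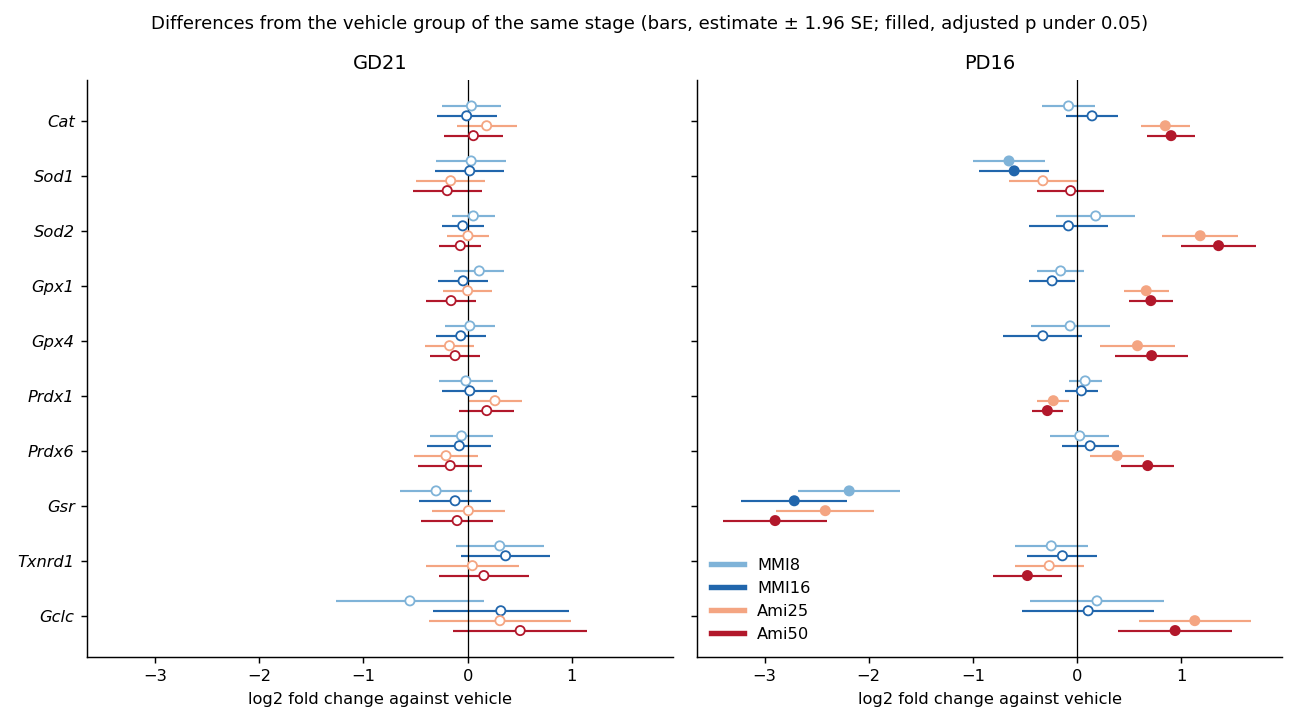
Log2 difference from vehicle at PD16 (horizontal axis) for each of the 10 genes (rows) in MMI8, MMI16, Ami25 and Ami50. Points are edgeR estimates, bars are 95% intervals, and filled points have an adjusted p under 0.05. Gsr lies far below 0 in all 4 groups, while Cat, Sod2, Gpx1, Gpx4, Prdx6 and Gclc lie above 0 with filled points in both amitrole groups. Gsr passed the filter on low counts through vehicle alone and Gclc only with the amitrole groups.

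Catalase, the peroxisomal enzyme that splits hydrogen peroxide into water and oxygen, had more transcript in both PD16 amitrole groups than in PD16 vehicle. Cat ran from 63.9 through a median of 104 to 141 CPM over the 10 vehicle libraries, a mean of 103 ± 25.9 CPM (SD, n = 10). In Ami25 its lowest, median and highest values were 114, 182 and 227 CPM, a mean of 181 ± 31.8 CPM (SD, n = 11). In Ami50 they were 134, 186 and 228 CPM, a mean of 183 ± 28.4 CPM (SD, n = 12). All 11 Ami25 and all 12 Ami50 libraries lay above the vehicle mean, though the ranges overlapped with those of the highest vehicle libraries. The log2 difference was 0.84 (SE 0.12, 1.80-fold) in Ami25 and 0.90 (SE 0.12, 1.87-fold) in Ami50. By edgeR's quasi-likelihood test the adjusted p was 1.32e-08 and 1.45e-09. The difference was called in every one of the 13 other ways of processing that were run for these comparisons.

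With methimazole no difference in Cat passed the test at either dose. Its lowest, median and highest values were 48.5, 101 and 129.6 CPM in PD16 MMI8, a mean of 98.5 ± 26.5 CPM (SD, n = 10), and 89.0, 118 and 142 CPM in PD16 MMI16, a mean of 116 ± 18.3 CPM (SD, n = 10). Both groups overlapped with vehicle over most of their range. The log2 difference from vehicle was -0.08 for MMI8 (95% interval -0.34 to 0.17, edgeR adjusted p = 0.845) and 0.14 for MMI16 (-0.11 to 0.39, adjusted p = 0.686). Set directly against methimazole, Cat was 1.90-fold higher in Ami25 than in MMI8 (log2 0.93, SE 0.12, adjusted p = 6.64e-09). It was 1.69-fold higher in Ami50 than in MMI16 (log2 0.76, SE 0.12, adjusted p = 2.88e-07). These pairs set the lower and the higher dose of each compound side by side, and the doses in mg/kg differ.

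No difference in Cat between the doses of a compound passed the test. The log2 difference of Ami50 from Ami25 at PD16 was 0.06, with a 95% interval of -0.16 to 0.27 (edgeR adjusted p = 0.954). For methimazole the difference of MMI16 from MMI8 was 0.23 (-0.03 to 0.49, adjusted p = 0.513). No member was called between the 2 doses of either compound, where 2.08% of all genes were called between the methimazole doses and 0% between the amitrole doses. Gpx4, at log2 -0.26 between the methimazole doses, became called lower in MMI16 in 1 of 13 alternatives (lowest adjusted p = 0.000684).

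At GD21 no difference in Cat passed the test. The lowest, median and highest values were 102, 142 and 165 CPM in vehicle, 109.5, 138 and 166 CPM in MMI8 and 103, 125 and 189 CPM in MMI16. In the amitrole groups they were 129.7, 151 and 184 CPM in Ami25 and 111, 132 and 184 CPM in Ami50. Every group overlapped with every other. Group means ran from 136 CPM in vehicle to 153 CPM in Ami25 (n = 6 each), and the log2 difference of Ami50 from vehicle was 0.06, with a 95% interval of -0.23 to 0.34 (edgeR adjusted p = 0.954).

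**Figure D2:**
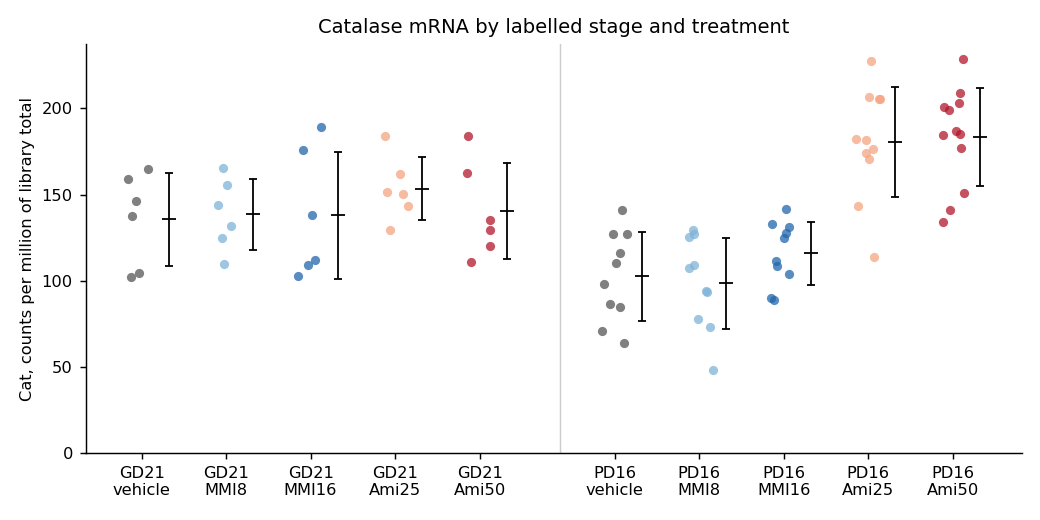
Cat in each of the 83 libraries (points, CPM on the vertical axis) for the 5 treatments at GD21 and PD16, with each group's mean and SD. The 2 PD16 amitrole groups have the highest means, 181 and 183 CPM, and PD16 MMI8 the lowest, 98.5 CPM.

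Ordered by mean level, Cat stood highest in PD16 Ami50 and PD16 Ami25. GD21 Ami25, Ami50, MMI8, MMI16 and vehicle followed in that order, and PD16 MMI16, vehicle and MMI8 came last. None of the 9 neighbouring pairs in this order differed by more than the larger of their SDs, and all neighbouring ranges overlapped. In the orders of the other members, Sod2, Gpx1, Prdx1 and Gsr had 1 neighbouring gap each above the larger SD, in Gsr with 1 pair of neighbouring ranges apart, and the remaining 5 had none.

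Markers of other cells moved with the amitrole groups at PD16. The 12 red-cell genes in the table summed to between 29958 and 52191 CPM over the PD16 vehicle and methimazole libraries, and to between 66076 and 132693 CPM over the amitrole libraries, with Hbe2 at 0 in Ami50. The 8 macrophage markers summed to 146 to 179 CPM in vehicle, 160.0 to 402 CPM in Ami25 and 208 to 411 CPM in Ami50. The neutrophil markers summed to 13.5 to 64.6, 75.4 to 374 and 80.5 to 608 CPM in the same groups, and the 8 adrenal cortex markers to 16498 to 24067, 16875 to 57329.6 and 25001 to 65336 CPM. Red cells are known to be rich in catalase, Gpx1 and peroxiredoxins. The part of these cells in the differences reported here was not tested. Cat was still higher in Ami50 without the 8 libraries low in Eif2s3y (log2 0.73, edgeR adjusted p = 0.000174). The labels give each library a number, and the libraries were also fitted in 2 sets, numbers up to 56 and from 57, a split that the labels do not explain. Within these sets the log2 difference of Cat was 0.73 and 1.10 for Ami25 and 0.79 and 1.13 for Ami50.

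The 2 dismutases went different ways at PD16. Sod1, the copper-zinc enzyme of the cytosol, was lower with methimazole, and Sod2, the manganese enzyme of the mitochondrial matrix, was higher with amitrole. Sod1 had lowest, median and highest values of 474, 626 and 726 CPM in vehicle, 342, 409 and 473 CPM in MMI8 and 276, 381 and 672 CPM in MMI16. The MMI8 and vehicle libraries nearly touched, with the highest of MMI8 at 473.3 CPM and the lowest of vehicle at 473.5 CPM. Those of MMI16 overlapped with vehicle. Sod1 fell 1.57-fold in MMI8 (log2 -0.65, SE 0.17, adjusted p = 0.00692) and 1.52-fold in MMI16 (log2 -0.60, SE 0.17, adjusted p = 0.0138), by edgeR's quasi-likelihood test. Amitrole gave log2 differences of -0.33 (adjusted p = 0.0895) and -0.06 (adjusted p = 0.767), neither past the test. In Ami25 Sod1 was called in 3 of 13 alternatives (lowest adjusted p = 0.00802, with only the compared libraries). In Ami50 it was called among libraries numbered from 57 (-0.42, adjusted p = 0.0306), and turned to 0.37 without the libraries low in Eif2s3y (adjusted p = 0.0941). Library totals moved with this result: the median total was 627049 in vehicle, 391746 in MMI8 and 487568 in MMI16, and Sod1 rose by 0.60 log2 units for each doubling of the total. With the total as a covariate the Sod1 differences were -0.31 (adjusted p = 0.0453) and -0.44 (adjusted p = 0.0014). Among libraries numbered up to 56 they were -0.60 (adjusted p = 0.183) and -0.68 (adjusted p = 0.061), and the call of MMI16 was also lost among those from 57 (adjusted p = 0.124). The macrophage markers, 146 to 179 CPM in vehicle, summed to 59.9 to 129 CPM in MMI8 and 67.1 to 119 CPM in MMI16, and the endothelial markers were also lower there, as given for Gsr. Their part in the Sod1 difference was not tested.

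Sod2 was higher in both amitrole groups. Its lowest, median and highest values were 222, 282 and 415 CPM in PD16 vehicle, 277, 622 and 955 CPM in Ami25 and 547, 633 and 1055 CPM in Ami50. No Ami50 library overlapped with vehicle. The rise was 2.27-fold in Ami25 (log2 1.18, SE 0.18, edgeR adjusted p = 3.21e-07) and 2.56-fold in Ami50 (log2 1.36, SE 0.18, adjusted p = 8.87e-09). In MMI8 and MMI16 the mean was 337 ± 81.4 and 286 ± 109.5 CPM, beside 290.1 ± 57.3 CPM for vehicle (SD, n = 10 each), and the adjusted p was 0.763 and 0.913.

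Both glutathione peroxidases, selenoenzymes that reduce peroxides with glutathione, rose with amitrole. Gpx1, the abundant cytosolic form, had lowest, median and highest values of 266, 346 and 418 CPM in PD16 vehicle, 409.8, 560.1 and 627 CPM in Ami25 and 453, 531 and 639 CPM in Ami50. The Ami50 libraries all lay above the vehicle libraries. Its log2 difference was 0.66 (SE 0.11, edgeR adjusted p = 5.94e-07) in Ami25 and 0.71 (SE 0.11, adjusted p = 8.87e-08) in Ami50. Gpx4, which reduces lipid peroxides in membranes, had 134, 177 and 243 CPM in vehicle, 121, 268 and 421 CPM in Ami25 and 181, 266 and 432 CPM in Ami50, with overlapping ranges. Its log2 difference was 0.58 (SE 0.18, adjusted p = 0.00598) and 0.71 (SE 0.18, adjusted p = 0.00063). Gpx4 also rose with the library total, by 0.76 log2 units per doubling. Among libraries numbered from 57, Gpx4 was not called in Ami25 (0.29, adjusted p = 0.436) or Ami50 (0.35, adjusted p = 0.308), nor was Gpx1 in Ami25 (0.37, adjusted p = 0.0799).

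The 2 peroxiredoxins moved in opposite directions with amitrole. Prdx1, a thioredoxin-dependent peroxidase of the cytosol, had lowest, median and highest values of 1530.2, 1814 and 2017 CPM in PD16 vehicle, 1329, 1423 and 1947 CPM in Ami25 and 1022, 1469.7 and 1715 CPM in Ami50. It fell by a small step: log2 -0.23 (SE 0.08, edgeR adjusted p = 0.0112) and -0.29 (SE 0.08, adjusted p = 0.0013). Prdx6, which reduces phospholipid peroxides with glutathione, had 52.0, 66.3 and 73.3 CPM in vehicle, 52.4, 81.6 and 102 CPM in Ami25 and 47.5, 91.8 and 128 CPM in Ami50. It rose by log2 0.38 (SE 0.13, adjusted p = 0.0126) and 0.68 (SE 0.13, adjusted p = 9.3e-06). All 4 comparisons had overlapping ranges. Among libraries numbered up to 56 the adjusted p in Ami25 was 0.0774 for Prdx1 and 0.084 for Prdx6, and with no filter on low counts it was 0.0502 for Prdx6. Among those from 57, neither gene was called in either amitrole group (adjusted p = 0.14 and 0.305 for Prdx1, 0.143 and 0.0826 for Prdx6).

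Glutathione reductase, which returns oxidised glutathione to its reduced form, was the member that changed most, and it fell with both compounds. Gsr ran from 21.6 through a median of 45.7 to 75.7 CPM in PD16 vehicle, a mean of 48.6 ± 17.0 CPM (SD, n = 10). The lowest, median and highest values were 1.88, 10.6 and 15.3 CPM in MMI8 and 1.54, 7.43 and 19.8 CPM in MMI16. They were 1.21, 9.10 and 17.6 CPM in Ami25 and 1.36, 5.08 and 14.6 CPM in Ami50, where each library held 1 to 5 counts. Gsr fell 4.56-fold in MMI8 (log2 -2.19, SE 0.25, edgeR adjusted p = 8.69e-11) and 6.56-fold in MMI16 (log2 -2.71, SE 0.26, adjusted p = 8.79e-14). With amitrole it fell 5.34-fold in Ami25 (log2 -2.42, SE 0.24, adjusted p = 2.21e-13) and 7.46-fold in Ami50 (log2 -2.90, SE 0.25, adjusted p = 1.29e-15).

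The treated PD16 libraries all lay below every vehicle library in Gsr. The gene passed the filter on low counts at PD16 through the vehicle group alone, where all 10 libraries reached the filter's level of about 20.3 CPM and no treated library did, so that a called difference had to be a fall. Gsr fell in both compounds in all 13 other ways of processing. The 5 endothelial markers moved with it: they summed to 421 to 650.2 CPM in PD16 vehicle, 160.4 to 259.7 CPM in MMI8, 136 to 242 CPM in MMI16, 129 to 239 CPM in Ami25 and 127 to 245 CPM in Ami50, with none of the 5 at 0 in any group. The part of endothelial cells in the fall of Gsr was not tested. At GD21 the Gsr means ran from 32.9 to 41.2 CPM over the 5 groups (n = 6 each), and no treated group passed the test against vehicle (edgeR adjusted p from 0.934 to 1).

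Thioredoxin reductase 1, the cytosolic selenoenzyme that keeps thioredoxin reduced, was lower in Ami50. Txnrd1 had lowest, median and highest values of 26.9, 43.7 and 70.8 CPM in PD16 vehicle, 22.6, 32.3 and 60.6 CPM in Ami25 and 19.9, 29.3 and 48.0 CPM in Ami50, and 11 of the 12 Ami50 libraries lay below the vehicle mean. The log2 difference in Ami50 was -0.48 (SE 0.17, edgeR adjusted p = 0.0147), and that in Ami25 was -0.27 (adjusted p = 0.175). The call in Ami50 ended without the 8 libraries low in Eif2s3y (log2 -0.47, adjusted p = 0.105) and among libraries numbered up to 56 (log2 -0.32, adjusted p = 0.248).

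Gclc, the catalytic subunit of the enzyme that limits glutathione synthesis, was higher in both amitrole groups but rested on few counts. It had lowest, median and highest values of 4.75, 12.1 and 31.7 CPM in PD16 vehicle (5 to 18 counts per library), 18.1, 29.7 and 58.5 CPM in Ami25 and 11.5, 27.0 and 54.3 CPM in Ami50 (8 to 27 counts). Every Ami25 library and 9 of the 12 Ami50 libraries lay above the vehicle mean, with overlapping ranges. The log2 difference was 1.13 (SE 0.27, edgeR adjusted p = 0.000412) in Ami25 and 0.94 (SE 0.28, adjusted p = 0.00341) in Ami50. Without the libraries low in Eif2s3y the Ami50 difference was 0.51 (adjusted p = 0.286). Gclc met the filter only with the amitrole groups, where 9 of 11 Ami25 and 7 of 12 Ami50 libraries reached its level. In vehicle 2 of 10 libraries did, in MMI8 1 of 10 and in MMI16 3 of 10, too few to pass without amitrole. A called difference of amitrole from these groups could therefore hardly be anything but a rise.

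**Figure D3:**
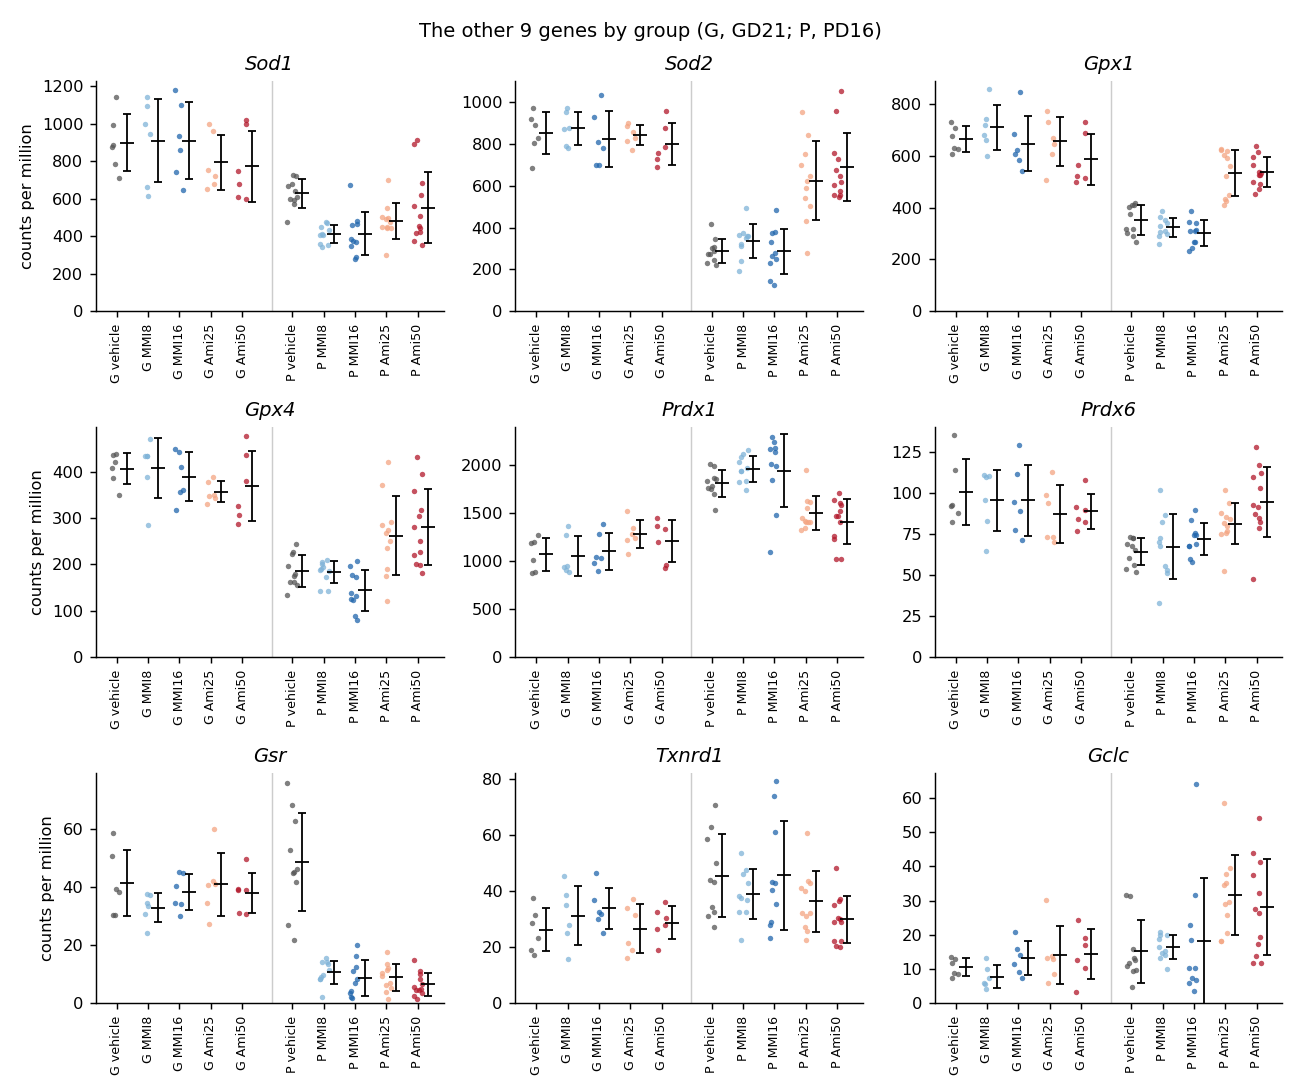
One panel per gene, with CPM on the vertical axis (each panel on its own scale) and the 10 groups along the horizontal axis. Points are libraries, and ticks with bars are the group mean and SD. Gsr is low in the 4 treated PD16 groups, whereas Sod2 and Gpx1 are low in PD16 vehicle, MMI8 and MMI16 and high in the other groups.

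The other members had no called difference from vehicle with methimazole. Mean levels in MMI8 and MMI16, beside vehicle, were 324 ± 37.5, 302 ± 49.0 and 351 ± 58.3 CPM for Gpx1 and 183 ± 23.6, 144 ± 43.4 and 186 ± 35.3 CPM for Gpx4 (SD, n = 10 each). They were 1967 ± 136, 1946 ± 382 and 1811 ± 141 CPM for Prdx1 and 67.3 ± 20.0, 71.8 ± 9.73 and 64.2 ± 8.15 CPM for Prdx6. For Txnrd1 they were 39.0 ± 8.93, 45.5 ± 19.5 and 45.4 ± 14.9 CPM, and for Gclc 16.3 ± 3.49, 18.1 ± 18.5 and 15.1 ± 9.15 CPM. The groups overlapped for all 6 genes. For Gpx1, Gpx4, Prdx1, Prdx6, Txnrd1 and Gclc the log2 differences from vehicle ran from -0.25 (Txnrd1) to 0.19 (Gclc) in MMI8 and from -0.33 (Gpx4) to 0.12 (Prdx6) in MMI16. Their edgeR adjusted p values ran from 0.57 to 0.968 in MMI8 and from 0.274 to 0.935 in MMI16. The widest of the 95% intervals was that of Gclc, -0.46 to 0.83 in MMI8.

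Set directly against methimazole, amitrole had the higher level of most members. Ami25 against MMI8 called 6 members higher and 1 lower (48.6% of all genes were called, 24.4% higher and 24.2% lower), and Ami50 against MMI16 called 7 higher and 1 lower (47.5%, 22.6% and 24.9%). Gclc, called higher in both, had passed the filter only with the amitrole libraries, as given above. Sod2 differed by log2 1.00 (SE 0.19, edgeR adjusted p = 1.23e-05) in the first and 1.44 (SE 0.19, adjusted p = 6.28e-09) in the second. For Gpx1 the values were 0.82 (adjusted p = 1.01e-08) and 0.95 (adjusted p = 1.27e-10), and for Gpx4 0.65 (adjusted p = 0.00363) and 1.04 (adjusted p = 5.54e-06). Prdx1 was the member that was lower, at log2 -0.31 (adjusted p = 0.000996) and -0.33 (adjusted p = 0.000373). Sod1 was higher in Ami50 than in MMI16 (0.54, adjusted p = 0.00621). Gsr, low in all these groups, differed by -0.23 (adjusted p = 0.601) and -0.18 (adjusted p = 0.725), neither past the test. The doses in mg/kg differ between the compounds. Cat, Sod2 and Gpx1 stayed called in both comparisons in all 13 alternatives. Among libraries numbered from 57, the Ami50 to MMI16 difference was 0.10 for Sod1 (adjusted p = 0.759), 0.32 for Gpx4 (0.498), -0.35 for Prdx1 (0.0802) and 0.16 for Prdx6 (0.68). Among the same libraries, Ami25 to MMI8 was not called for Gpx4 (0.42, adjusted p = 0.284), Prdx1 (-0.33, 0.0551) or Gclc (1.00, 0.0589). Prdx6 in Ami25 against MMI8 was called in 8 of 13 alternatives and Gclc in Ami50 against MMI16 in 10 of 13, with an adjusted p of up to 0.477 and 0.425.

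At GD21 none of 80 tests of a member, over 8 comparisons of the 5 groups, was called, and 3 had an unadjusted p under 0.05. The smallest edgeR adjusted p was 0.529, for Prdx1 in Ami25 against MMI8, and no alternative processing called a member. Over all genes the same test called 0% in each of these comparisons, with an unadjusted p under 0.05 in 175 to 588 genes, and DESeq2's Wald test called 22 genes higher in Ami50 than in vehicle.

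The GD21 levels of the members other than Cat and Gsr overlapped between all 5 groups. The 2 dismutases averaged 898 ± 154 CPM (Sod1) and 850.4 ± 100.5 CPM (Sod2) in GD21 vehicle and 774 ± 189 and 798 ± 100.2 CPM in GD21 Ami50 (SD, n = 6 each). Among the peroxidases, Gpx1 averaged 664 ± 49.7 CPM in GD21 vehicle and 587 ± 98.9 CPM in GD21 Ami50, Gpx4 407 ± 34.1 and 369 ± 75.9 CPM, Prdx1 1074 ± 173 and 1209 ± 219.9 CPM, and Prdx6 101 ± 20.0 and 88.7 ± 10.7 CPM. Txnrd1 averaged 26.1 ± 7.78 and 28.7 ± 5.90 CPM and Gclc 10.4 ± 2.63 and 14.4 ± 7.43 CPM in the same groups. In GD21 MMI16 the means were 909.7 (Sod1), 826 (Sod2), 648 (Gpx1), 389 (Gpx4), 1103 (Prdx1), 95.5 (Prdx6), 33.8 (Txnrd1) and 13.1 CPM (Gclc).

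Between the labelled stages, most members were lower at PD16 than at GD21 in the vehicle and methimazole groups and fewer were in the amitrole groups. PD16 vehicle against GD21 vehicle called 2 members higher and 6 lower, where 46.5% of all genes were called (24.4% higher and 22.1% lower). The counts were 2 higher and 7 lower in MMI8 (48.7%) and 1 higher and 7 lower in MMI16 (47% of genes). They were 1 higher and 5 lower in Ami25 (11.2%), and 0 higher and 2 lower in Ami50 (7.86%). Gclc, the 1 higher in Ami25 and 1 of the 2 in MMI8, was called in 10 of 13 alternatives in Ami25 and 8 of 12 in MMI8. Its adjusted p there reached 0.301 and 0.773. Cat was lower at PD16 in vehicle (log2 -0.55, SE 0.14, edgeR adjusted p = 0.000555), MMI8 (-0.68, adjusted p = 3.67e-05) and MMI16 (-0.41, adjusted p = 0.0113). In Ami25 and Ami50 it differed by 0.08 (95% interval -0.18 to 0.34) and 0.27 (0.01 to 0.53), not past the test. In the libraries numbered from 57, the Cat difference in vehicle was -0.39 (adjusted p = 0.207).

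The same shape held for the dismutase of mitochondria and the glutathione peroxidases. Sod2 was lower at PD16 in vehicle (log2 -1.68, SE 0.18, edgeR adjusted p = 7.99e-13), while in Ami50 the difference was -0.29 (adjusted p = 0.378). For Gpx1 the values were -1.05 (adjusted p = 7.27e-12) and -0.22 (adjusted p = 0.317), and for Gpx4 -1.25 (adjusted p = 1.08e-08) and -0.46 (adjusted p = 0.0999). Prdx1 went the other way in vehicle, 0.61 (adjusted p = 3.23e-06), and in Ami50 it was 0.11 (adjusted p = 0.644). Gsr did not pass the test between stages in vehicle (0.06, adjusted p = 0.804) and was lower at PD16 in Ami50 (-2.78, adjusted p = 1.49e-15). No PD16 Ami50 library reached the filter's PD16 level for Gsr, as given above, so that difference could hardly be anything but a fall. In vehicle, Sod1 (-0.64, adjusted p = 0.00205) and Prdx6 (-0.78, adjusted p = 5.45e-06) were also lower at PD16, Txnrd1 was higher (0.64, adjusted p = 0.00318), and Gclc did not pass (0.26, adjusted p = 0.544). With the library total as a covariate the Sod1 difference was -0.11 (adjusted p = 0.462). Globin transcripts took a mean of 3.81 to 4.09% of counts at PD16 in vehicle, MMI8 and MMI16 and a mean of 8.05 to 10.3% in the other groups, and the part of red cells in these stage differences was not tested.

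Whether the difference from vehicle itself differed between the labelled stages was tested as an interaction. For Ami50 it contains the PD16 difference of amitrole from vehicle, which cannot be told apart from what made the groups differ in globins. The Ami50 response at PD16 minus that at GD21 was called for 8 members, 5 higher and 3 lower, where 32.8% of all genes were called (16.4% in each direction). Cat had the interaction 0.82 (SE 0.19, edgeR adjusted p = 0.00034), Sod2 1.39 (adjusted p = 5.55e-06) and Gpx1 0.83 (adjusted p = 5.2e-05). Sod1 and Gclc did not pass (0.09, adjusted p = 0.824, and 0.40, adjusted p = 0.524). For MMI16, Gsr alone was called (-2.63, adjusted p = 4.22e-10), where 5.22% of genes were, and Cat had 0.13 (adjusted p = 0.959). PD16 vehicle reached the filter's PD16 level for Gsr and no treated PD16 library did. The PD16 part of the Gsr interactions could therefore hardly be anything but a fall. Sod1 had -0.67 for MMI16, not called, and became called in 1 of 13 alternatives (lowest adjusted p = 0.000578).

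**Figure D4:**
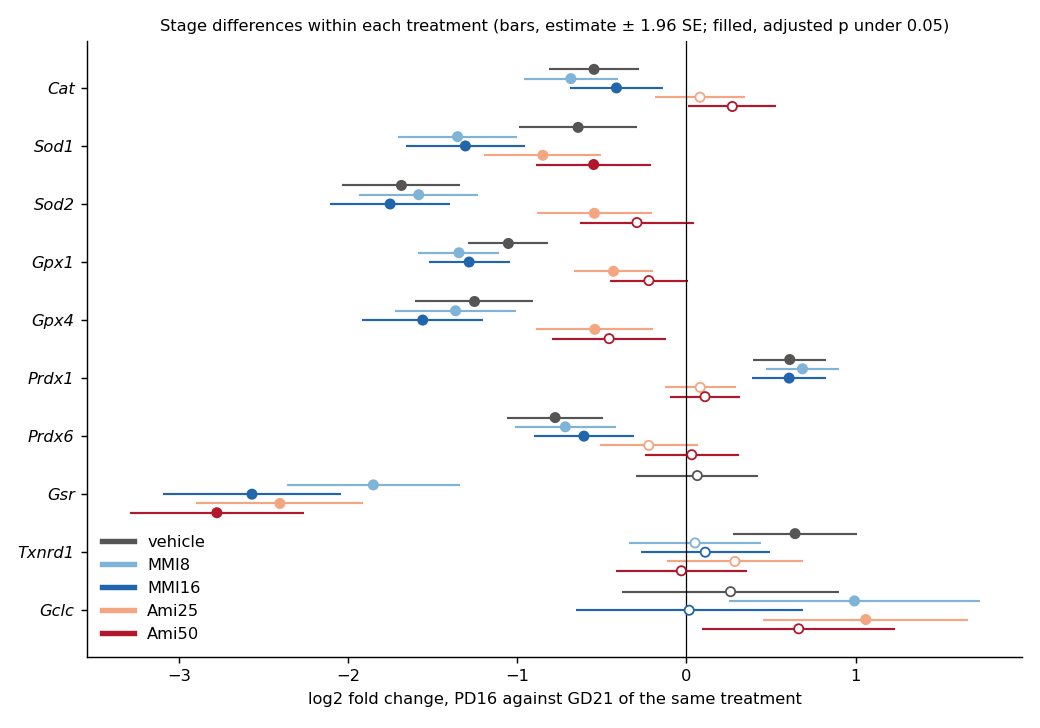
Log2 difference of PD16 from GD21 within each treatment (horizontal axis) for the 10 genes (rows). Points are edgeR estimates, bars are 95% intervals, and filled points have an adjusted p under 0.05. Cat lies below 0 with filled points in vehicle, MMI8 and MMI16 and has open points in both amitrole groups.

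Library depth moved with the level of several members within a stage. The slopes are from the edgeR fit, which scales counts by library total and TMM factors, with the group in the model. Over the PD16 libraries the level of Gpx4 rose by 0.76 log2 units for each doubling of the library total (edgeR adjusted p = 2.16e-16). That of Sod1 rose by 0.60 (adjusted p = 5.23e-12), that of Sod2 by 0.41 (adjusted p = 0.00114) and that of Gpx1 by 0.34 (adjusted p = 2.5e-07). Gclc and Gsr went the other way, with -0.78 (adjusted p = 2.18e-05) and -0.60 (adjusted p = 0.00517). Cat showed -0.09 at PD16 (adjusted p = 0.364) but -0.42 at GD21 (adjusted p = 0.000751). Such a slope was called for 43.3% of all genes at PD16 and 27.1% at GD21. With the total as a covariate Cat still differed from vehicle by 0.82 in Ami25 and 0.87 in Ami50.

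**Figure D5:**
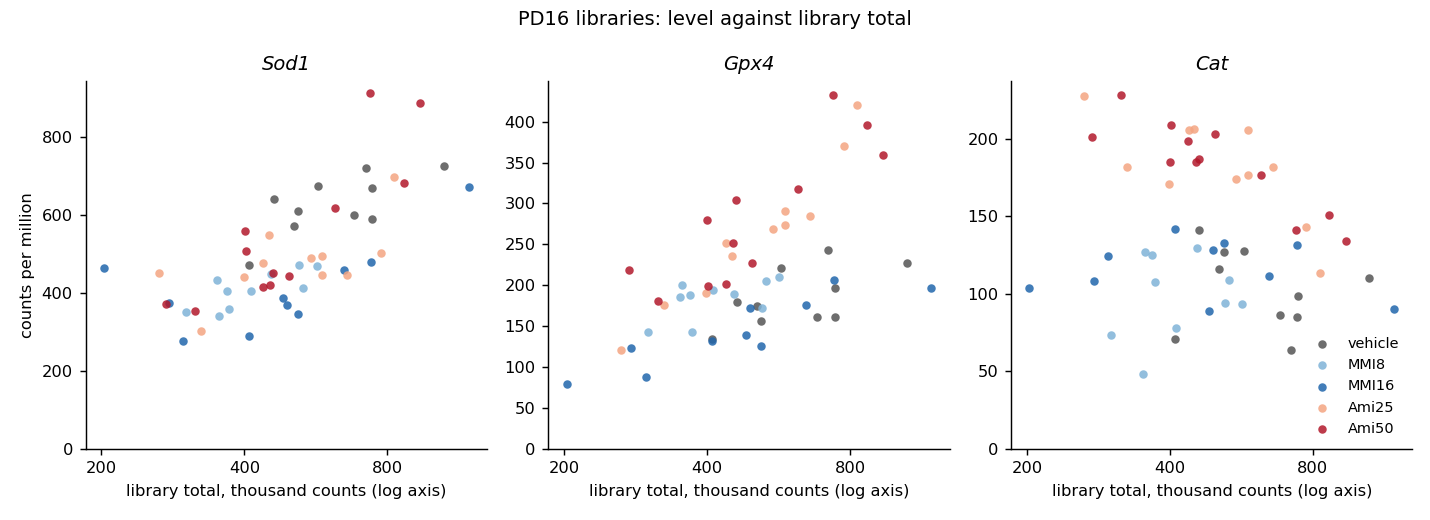
Level of Sod1, Gpx4 and Cat (panels, CPM on the vertical axis) in the PD16 libraries against the library total (horizontal axis, log scale), coloured by group. Sod1 and Gpx4 climb with the total within groups, and Cat shows no such climb.

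Genes around the members were described through 8 lists, chosen with earlier results of these data known. For Ami50 against vehicle at PD16, 8 of 12 tested genes of the glutathione system were called higher and 1 lower (median log2 0.45), beside a median of 0.02 over all genes, of which 27.1% were higher and 26.5% lower. Gsta1, a glutathione transferase, went from 145 ± 35.0 CPM in vehicle to 1705 ± 279 CPM in Ami50 (SD, n = 10 and 12), 12.4-fold (log2 3.63, SE 0.16, edgeR adjusted p = 3.46e-27). Glrx, a glutaredoxin that reduces mixed disulfides of glutathione, rose by log2 1.71, and Glrx5, another glutaredoxin, by 0.83. Gsta1 also reached a mean of 1427 ± 252 CPM in GD21 vehicle (SD, n = 6), near its level in PD16 Ami50.

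Of 9 tested other peroxidases and dismutases, 6 were higher in Ami50 and 3 lower (median log2 0.55). Sod3, the secreted dismutase, rose by log2 2.30 (SE 0.33, edgeR adjusted p = 2.4e-08), and the mitochondrial peroxiredoxins Prdx5 and Prdx3 by 1.34 and 1.23. Sod3 averaged 9.28, 10.3 and 12.8 CPM in PD16 vehicle, MMI8 and MMI16, under the filter's level of about 20.3 CPM. In Ami25 and Ami50 it averaged 35.8 and 40.5 CPM. It thus likely passed the filter through the amitrole groups, which would largely fix the direction of its call. The 3 lower genes, named after their values were seen, were Gpx7 (-0.60), Gpx8 (-0.80) and Prdx4 (-0.42), whose products work in the endoplasmic reticulum. In the thioredoxin system 3 of 7 were higher and 0 lower (median 0.05): Txnrd2 (1.26) and Txn2 (0.76), the mitochondrial reductase and thioredoxin, and Txnip (1.03), a thioredoxin inhibitor. Txnrd1, the cytosolic reductase, had fallen.

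NADPH supply had 5 of 8 genes higher and 0 lower in Ami50 (median log2 0.56), among them Me1 (1.47) and Pgd (0.86), enzymes that make NADPH. Of Nrf2 and its targets, 7 of 10 were higher and 0 lower (median 0.79). Among them were Akr1b8 (1.82), an aldo-keto reductase, Hmox1 (1.71), the inducible haem oxygenase, and Fth1 (1.46), the ferritin heavy chain. Hmox1 averaged 11.3, 16.8 and 13.6 CPM in PD16 vehicle, MMI8 and MMI16, under the filter's level of about 20.3 CPM, and 40.3 and 34.1 CPM in Ami25 and Ami50. It thus likely passed the filter mainly through the amitrole groups, which would largely fix the direction of its call. Hmox1 is also abundant in macrophages and Fth1 in many cells, and the macrophage markers were higher in the same libraries, as given above for Cat, and their part was not tested.

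The peroxisome list, which holds genes of the organelle that contains catalase, had 10 of 17 genes higher and 1 lower in Ami50 (median log2 0.53). Hao2, a peroxisomal hydroxyacid oxidase that makes hydrogen peroxide, rose by log2 3.22 (SE 0.27, edgeR adjusted p = 5.92e-15), and Crat, carnitine acetyltransferase, by 1.37. Abcd3, a transporter of the peroxisomal membrane, was the lower gene: it went from 1037 ± 229.9 CPM in vehicle to 97.9 ± 41.0 CPM in Ami50 (SD, n = 10 and 12; log2 -3.40, SE 0.21, adjusted p = 2.2e-20). Like Gsr it fell with both compounds, by log2 -1.78 in MMI8 (adjusted p = 1.84e-10) and -3.01 in MMI16 (adjusted p = 2.29e-17). The list of selenoprotein synthesis had 5 of 13 higher and 3 lower (median 0.22), among them Selenop, the selenium carrier of plasma (1.24), Msrb1, a methionine sulfoxide reductase (0.66), and Selenom (-0.49). Of the oxidant sources, both tested genes were lower in Ami50, Cyba, a subunit of NADPH oxidase, by log2 -0.59.

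Methimazole called 4 genes of these lists in MMI8 and 1 in MMI16, where 8.36% and 8.11% of all genes were called. The numbers tested per list were those given below for Ami25, so neither count stood above the share over all genes. In MMI8 they were Pgd (0.44, edgeR adjusted p = 0.0199), Akr1b8 (1.15, adjusted p = 0.000973) and Hao2 (0.96, adjusted p = 0.0314), all higher, and Abcd3, lower (-1.78), and in MMI16 Abcd3 alone (-3.01). In Ami25 the counts of higher and lower genes were 7 and 1 of 12 tested for the glutathione system, 5 and 3 of 9 for other peroxidases and dismutases, 3 and 1 of 7 for the thioredoxin system and 5 and 1 of 8 for NADPH supply. They were 7 and 0 of 10 for Nrf2 and its targets, 12 and 1 of 17 for the peroxisome, 4 and 2 of 13 for selenoprotein synthesis and 0 and 1 of 2 for oxidant sources, beside 27.9% higher and 27.5% lower over all genes. Between vehicle libraries of the 2 stages, the peroxisome list had 1 gene higher and 13 lower at PD16 of 24 tested, and Nrf2 and its targets 0 higher and 7 lower of 11, beside 24.4% and 22.1% of all genes.

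The genes whose level followed Cat most closely over the 83 libraries were Slc25a20 (Pearson r 0.82, Spearman rho 0.81), the mitochondrial carnitine-acylcarnitine carrier, Ghitm (r 0.82), a mitochondrial inner membrane protein, Glmp (r 0.82) and Psap (r 0.82), both lysosomal, and Bnip3l (r 0.81), a mitochondrial outer membrane protein that acts in mitophagy, out of 6286 genes. The correlations are of log2 CPM adjusted by TMM factors, with a prior count of 2. They carry no p, because the libraries share groups, depth and cell makeup. Slc25a20 averaged 111 ± 26.5 CPM in PD16 vehicle (SD, n = 10) and 217 ± 46.9 CPM in PD16 Ami50 (SD, n = 12). Of the other members Gpx1 (r 0.54, rank 594) and Sod2 (r 0.54, rank 602) lay nearest to Cat, and Txnrd1 (r -0.37) farthest.

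Some rows cannot be read without doubt. RefSeq lists pseudogenes named after Sod2 (1), Gpx4 (4), Prdx1 (7) and Prdx6 (3), and the table holds none of these as rows of their own, so reads from such copies may have been counted with these members. Whether counting used the strand is not given in the sources used here, so transcripts that overlap a member on the other strand may be included.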

How the data were processed

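The deposited table holds raw read counts per gene symbol and library for 83 libraries, per the labels. The authors aligned reads to rn6 with BWA 0.7.4.4, per the submitters' processing notes; for the counting tool, annotation, strand and molecular barcodes, the step is not given in the sources used here. Of 17483 symbols, 15578 matched RefSeq rat names.

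Counts were tested in R 4.3.3 with edgeR 4.0.16 (quasi-likelihood F test, robust fit, TMM factors, filterByExpr with a minimum count of 10). One fit per stage held its 5 groups, and a fit of all 10 groups (6287 genes) gave the stage comparisons and interactions, 23 comparisons in all. CPM are counts scaled to the library total. Intervals are 95% normal intervals from the standard error. The code was tested on simulated data. No 2 libraries of a group were alike within sampling noise (331 pairs).

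The members, the 8 gene lists and the tests were chosen with earlier results of these data known. Named list genes were up to 3 per list called in PD16 MMI16 or Ami50 against vehicle, by size, at 20 CPM or more, and the 5 genes most like Cat; a gene that this rule named is not reported here. Alternatives were DESeq2 1.42.0 (Wald test, size factors), other filters, covariates and subsets of libraries; the legacy fit and the library total as covariate were added after seeing the data. At the PD16 median total 1 count is about 2.03 CPM.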

Additional observations from a re-analysis of the deposited data

Results flagged for a closer look

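In the groups of 4 to 10 libraries, 3 of 80 gene and group pairs held a library far from the others by Dixon's criterion at 95%, where chance gives about 5 in 100. Sod1 reached 672 CPM (798 counts) in PD16 MMI16 replicate 9, with the nearest library at 479 CPM, and that library had the largest PD16 total, 1186973. Gclc reached 30.3 CPM (15 counts) in GD21 Ami25 replicate 51, with the nearest at 13.6 CPM, in the library with the smallest GD21 total, 495369. Gclc also reached 64.3 CPM (13 counts) in PD16 MMI16 replicate 10, with the nearest at 31.7 CPM, in the library with the smallest PD16 total, 202270.

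Some differences from vehicle differed between the labelled stages by edgeR's interaction test, with the limit from the globins given above for amitrole at PD16. For MMI16 this was Gsr, with -2.63 log2 units (adjusted p = 4.22e-10), and Sod1 passed only in 1 of 13 alternatives. For Ami50 it was Cat with 0.82 (adjusted p = 0.00034), Sod2 with 1.39 (5.55e-06), Gpx1 with 0.83 (5.2e-05), Gpx4 with 0.80 (0.00991), Prdx6 with 0.81 (0.000988), Prdx1 with -0.50 (0.00661), Gsr with -2.84 (7.74e-12) and Txnrd1 with -0.67 (0.0485). The Txnrd1 interaction was called in 4 of 13 alternatives and that of Gpx4 in 10 of 13, with an adjusted p of up to 0.399 and 0.288. The interactions of Cat, Prdx1 and Prdx6 were each called in 12 of 13. Prdx1 had -0.09 among libraries numbered up to 56 (adjusted p = 0.816), and among those from 57 Cat had 0.71 (0.0895) and Prdx6 0.41 (0.366). Sod2, Gpx1 and both Gsr interactions were called in all 13, though the direction of the Gsr interactions was limited by the filter, as given above.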

How the results depend on the processing

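No paired analysis was possible because the groups share no replicate numbers in the labels. Over the 10 genes, 23 comparisons and up to 13 alternatives, 2813 values were recomputed: 2724 stayed on their side of the threshold (177 of them uncalled values whose sign differed), 81 lost the call, 7 gained one and 1 reversed. That one was Gpx4 in MMI8 at PD16, which differed from vehicle by 0.38 (adjusted p = 0.00636) with the library total as covariate and by -0.07, not called, without it. Cat in PD16 against GD21 vehicle was -0.39 among libraries numbered from 57 (adjusted p = 0.207). Cat in PD16 against GD21 MMI16 was -0.32 without the libraries rich in Alb (200 CPM and above, adjusted p = 0.101) and -0.11 from number 57 (adjusted p = 0.814), and its Ami50 interaction there was 0.71 (adjusted p = 0.0895). Calls lost or gained against vehicle and between compounds at PD16 are given with each gene, except that Sod1 in Ami25 against MMI8 became called with only the compared libraries (adjusted p = 0.00839). Between stages, Sod1 and Txnrd1 in vehicle lost the call in 2 of 13 alternatives each, Gpx1 and Gpx4 in Ami25 lost the call in 2 and 4 of 13 alternatives, Sod2 in Ami25 in 5 and Sod1 in Ami50 in 6. Prdx6 was called in 12 of 13 in MMI8 and 11 of 13 in MMI16, and Sod1 in Ami25 in 12 of 13. Gclc is given with the stage comparisons.

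Members called against vehicle at PD16 came to 1 higher in MMI8 with the total as covariate (0 without it), 1 lower in MMI8 among libraries numbered up to 56 (2 in all), 1 lower in MMI16 in either set of numbers (2), 3 higher in Ami25 from number 57 (6) and 1 lower in Ami25 up to number 56 (2). Over all genes, 72 higher in MMI8 became 27 with no filter, 277 with the total as covariate, 34 up to number 56, 3 from 57 and 140 with only the compared libraries, and 42 higher in MMI16 became 27, 167, 9, 3 and 14. From number 57, Ami25 called 789 higher and 896 lower (1369 and 1348), and Ami50 838 higher (1329). At GD21, Ami50 against vehicle called 78 higher and 108 lower from number 57, and 22 higher with DESeq2, where edgeR called 0; the other GD21 comparisons moved to at most 9 either way. Between stages, libraries from 57 gave 839 higher and 865 lower in vehicle (1533 and 1390), 927 higher in MMI8 (1408) and 536 and 691 in MMI16 (1420 and 1535). In Ami25, 259 higher became 121 with no filter, 60 with the total, 135 without Alb-rich libraries and 48 up to number 56, and in Ami50, 87 became 28 with no filter, 46 without Alb-rich libraries, 9 without libraries low in Eif2s3y, 47 up to 56 and 38 with only the compared libraries. The MMI16 interaction went from 7 higher to between 4 and 16 and from 321 lower to 183 from number 57, and the Ami50 interaction from 1029 and 1030 to 662 and 597 up to 56 and to 446 and 588 from 57. Subsets hold fewer libraries; the cause of the other shifts was not tested. Members of few counts, Gsr and Gclc, are limited most by depth.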
